A study of Mus musculus with 4 samples.

Results

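The genes described here are 8 genes of memory and resting B cells, Cd38, Klf2, Hhex, Il6ra, Zfp318, Cd55, Fcer2a and Cr2, out of 31053 genes in the count matrices. They were taken by name from a list drawn up with earlier results of these data known, and no threshold on a measured value was applied to them. Single-cell RNA-seq (10x Genomics Chromium, 3′ tag counting with molecular identifiers, UMIs) was carried out on spleen cells sorted as B220+IgD- on day 10 after mice were immunized with sheep red blood cells, which induce germinal centers (GC). Each of 4 genotypes was measured in 1 library from 1 spleen, so no difference between genotypes has a replicate check. The mice were 8 weeks old, female and on a C57BL/6J background. All 4 carried Cγ1cre/+, in which Cre is made by B cells that transcribe the Cγ1 constant region, so that deletion is directed to B cells activated by antigen rather than to all B cells. WT carried Cγ1cre/+ alone, C carried Cγ1cre/+ and Crebbp fl/+, K carried Cγ1cre/+ and Kmt2d fl/+, and CK carried Cγ1cre/+, Crebbp fl/+ and Kmt2d fl/+. In what follows, WT, C, K and CK stand for the libraries so labelled. The question was how the 8 genes were distributed over the GC B cell subtypes that the authors annotated, along their pseudotime, and over the B cells of the same libraries that carried no annotation.

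A GC B cell proliferates and mutates its antibody genes as a centroblast, is tested for antigen binding as a centrocyte, and can leave the GC as a memory B cell or a plasma cell. Follicular B cells recirculate between lymphoid follicles, and marginal zone B cells stay at the border of the splenic follicle, where they take up complement-coated antigen through a high density of complement receptors. Memory B cells and resting follicular B cells are alike in that they do not divide, and they use several of the same genes for homing, survival and sensing of antigen.

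The libraries held 8071 (WT), 9981 (C), 8105 (K) and 12852 (CK) cell barcodes, with medians of 2948, 2292, 3201 and 2202.5 UMIs per barcode, and 9804 cells in all carried an annotation as GC B cells. Pairs of libraries shared between 17 and 31 barcodes, of which at most 4 were annotated in both. Series of 4 values follow the order of genotypes above, WT first and CK last. Levels are given as CPM, the UMIs of a gene summed over the cells of a class in a library and scaled to 1000000 UMIs of that sum. In the annotated GC B cells, Crebbp was at 68.4 (95% counting interval 62.0 to 75.3), 43.0, 38.6 (35.3 to 42.2) and 38.0 CPM, so the K library, which was not labelled as a Crebbp heterozygote, was as low as C and CK. Kmt2d was at 18.5, 21.3, 9.85 and 15.1. In T-like cells, to which the deletion is not directed, Crebbp was at 78.4, 75.7, 47.9 and 62.2 and Kmt2d at 25.5, 30.7, 16.7 and 26.1, so both were lowest in K there too, and 3′ tags need not read the floxed exons. The K library also stood apart over all genes. Depending on the cell class, 21.3 to 30.2% of all genes tested were at least 1.5-fold lower in K than in WT, against 4.68 to 9.41% in C and 4.82 to 13.7% in CK, and the median gene was lower by 0.13 to 0.24 on the log2 scale in K. All K values below are to be read beside these shares.

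Intervals of CPM are exact Poisson intervals at 95%. All intervals cover counting error only, not the spread between mice. Because 3′ tags are counted once per transcript end, levels were compared for a given gene between classes and libraries and not ranked as absolute amounts of different proteins. The annotated subtypes described are centroblasts, cells transitioning from centroblast to centrocyte, centrocytes, and prememory cells (145, 225, 93 and 115 cells). All cells were clustered without the 8 genes, and the unannotated cells were named by other markers of their cluster as follicular-like B cells (1404, 2543, 1201 and 1788 cells), marginal zone-like B cells (429, 706, 191 and 284 cells), unannotated GC B-like cells and T-like cells, which here serve as the cells that should lack B cell genes. In T-like cells the summed T cell markers were at 7264 to 8009 CPM, against 66.2 to 107 in follicular-like cells. The summed GC markers were at 1476 to 1755 in centrocytes but 121 to 226 in prememory cells and 104 to 160 in follicular-like cells. Of the prememory cells, 144, 222, 86 and 110 fell in clusters of non-GC B cells when all cells were clustered together, and 1, 3, 7 and 2 fell in GC clusters. Any cell that left the GC and any follicular cell given a prememory annotation cannot be told apart by these counts.

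The genes lie on 6 chromosomes of the mm10 (GRCm38) build. Klf2 (ENSMUSG00000055148) is at chr8:72319033-72321656 on the plus strand, and Fcer2a (ENSMUSG00000005540) at chr8:3681737-3694175 on the minus strand. Cd55 (ENSMUSG00000026399) and Cr2 (ENSMUSG00000026616) are both on the minus strand of chromosome 1, at chr1:130439027-130462744 and chr1:195136811-195176716. Il6ra (ENSMUSG00000027947) is at chr3:89864059-89913196 on the minus strand, Cd38 (ENSMUSG00000029084) at chr5:43868553-43912375, Zfp318 (ENSMUSG00000015597) at chr17:46383731-46420920 and Hhex (ENSMUSG00000024986) at chr19:37434810-37440731 on the plus strand. Antisense genes overlap Cd55 (Gm16083), Il6ra (Gm42809) and Cd38 (Gm16015). Whether counting used the strand is not given in the sources used here, so reads of these genes and of their antisense partners may not be separated.

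Promoter sequence is shown for Klf2, which had the widest span of CPM between the B cell classes, and for Fcer2a, which was lower in CK than in WT in every B cell class compared. Both come from RefSeq on GRCm38.p6 and run from 250 bases before to 50 bases after a transcript start, read 5′ to 3′ on the strand of the gene. All 8 genes matched an entry, and Fcer2a matched 3, for separate transcript starts that 3′ tags cannot tell apart. Capitals mark CACCC or its complement GGGTG, the short core bound by factors of the Klf family, and the Stat6 palindrome, TTC and GAA with 4 bases between them, searched on both strands. The first Klf2 and Fcer2a entries and the second Fcer2a entry read as follows.
Klf2 (chr8:72318812-72319111, plus strand): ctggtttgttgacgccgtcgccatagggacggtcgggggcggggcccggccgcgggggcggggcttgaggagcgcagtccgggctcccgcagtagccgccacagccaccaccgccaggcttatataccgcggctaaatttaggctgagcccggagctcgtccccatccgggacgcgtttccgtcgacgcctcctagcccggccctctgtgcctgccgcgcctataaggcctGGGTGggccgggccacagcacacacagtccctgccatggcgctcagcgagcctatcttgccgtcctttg
Fcer2a entry 1 (chr8:3694125-3694424, minus strand): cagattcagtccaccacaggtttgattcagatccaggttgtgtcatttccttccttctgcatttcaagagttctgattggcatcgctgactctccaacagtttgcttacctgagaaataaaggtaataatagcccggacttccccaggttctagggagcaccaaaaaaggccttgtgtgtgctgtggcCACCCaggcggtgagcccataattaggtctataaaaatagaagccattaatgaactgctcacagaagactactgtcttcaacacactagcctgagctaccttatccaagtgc
Fcer2a entry 2 (chr8:3690812-3691111, minus strand): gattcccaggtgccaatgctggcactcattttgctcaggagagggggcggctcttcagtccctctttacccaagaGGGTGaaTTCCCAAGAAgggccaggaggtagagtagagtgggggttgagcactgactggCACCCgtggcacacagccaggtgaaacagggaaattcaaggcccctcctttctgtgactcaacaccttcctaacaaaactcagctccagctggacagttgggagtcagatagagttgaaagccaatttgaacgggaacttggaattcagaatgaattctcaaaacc

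The second Fcer2a entry was the only promoter of the 8 genes to hold the Stat6 palindrome, which 6.95% of the 32851 mouse promoters of the same length held. CACCC was in 57.5% of all promoters and is therefore little to go by. It was absent from the Il6ra window and began 19 bases before the Klf2 start, on the minus strand. TTCCNNGAA, a form bound by Bcl6, was in 4.81% of promoters and in none of the 8 genes. The Klf2 window was 69.3% G and C, against a median of 52.7% over all promoters, and the first Fcer2a window was 46.0%. A match in letters is no measure of binding, and the motifs were chosen with earlier results of these data known.

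Klf2, the zinc finger factor that keeps lymphocytes quiescent and recirculating, was lower in centroblasts and transitioning cells than in centrocytes and highest in follicular-like cells among the classes described here. In centroblasts it was at 59.2, 81.3, 34.4 and 46.9 CPM, in centrocytes at 156, 184, 137 and 191, and in prememory cells at 507 (448 to 572), 430 (382 to 484), 473 (398 to 558) and 435 (360 to 522). In follicular-like cells it was at 2049, 2194, 2115 and 2181, and in marginal zone-like cells at 709, 658, 661 and 928. The order centroblast, centrocyte, prememory, follicular-like held in all 4 libraries, and the prememory intervals of the 4 libraries overlapped. Klf2 is no B cell gene as such, since T-like cells held 1063, 1260, 1015 and 1175.

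Hhex, a homeobox factor needed for memory B cell formation, followed the same order at far fewer UMIs. It was at 1.04, 2.41, 0.568 and 1.49 in centroblasts, at 10.9, 13.8, 9.59 and 6.65 in centrocytes and at 26.5 (14.5 to 44.5), 30.4 (18.6 to 47.0), 33.8 (16.2 to 62.1) and 30 (13.0 to 59.2) in prememory cells. Follicular-like cells held 58.5, 54.6, 68.7 and 53.3. The prememory level was above the centrocyte level and below the follicular-like level in all 4 libraries. T-like cells held 0.532 to 1.31 for this gene.

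Zfp318, a factor required for the long heavy chain transcript from which IgD is spliced, was also higher in prememory cells than in centrocytes in all 4 libraries. Prememory cells held 75.7 (54.1 to 103), 80.6, 27.0 (11.7 to 53.3) and 90.1 (57.7 to 134), centrocytes 19.1, 21.8, 11.6 and 16.6, and follicular-like cells 132, 123, 63.4 and 95.9. The K library was the lowest in each of these classes, and the WT, C and CK libraries lay close together in prememory cells. Ighd, the IgD constant region gene, was at 416, 351, 324 and 390 in prememory cells and at 66.2, 63.2, 47.5 and 52.4 in centrocytes, although the sort was for cells without surface IgD.

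Cd38, the surface ectoenzyme that mouse GC B cells lose and memory B cells carry, was at 28.1, 24.5, 19.6 and 30.6 in centroblasts and at 91.3, 69.5, 66.3 and 97.8 in centrocytes. Prememory cells held 167 (134 to 205), 181 (150 to 217), 142 (102 to 192) and 143 (101 to 196), whose intervals overlapped. Marginal zone-like cells were the highest in each library at 446, 430, 267 and 483, ahead of follicular-like cells at 259, 232, 169 and 225. T-like cells held 7.03 to 13.7.

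Cd55, decay-accelerating factor, which protects cells from complement, was mainly a gene of follicular-like cells, at 404 (382 to 427), 390 (372 to 410), 201 (182 to 221) and 339 (315 to 364). Prememory cells of WT and C held 92.8 (68.6 to 123) and 76.0 (56.4 to 100), but those of K and CK held 16.9 (5.49 to 39.4) and 26.3 (10.6 to 54.1). These rest on 49, 50, 5 and 7 UMIs, and neither the K nor the CK interval reached those of WT and C. Centrocytes held 27.9, 39.3, 15.2 and 35.1, so the CK library was among the highest there. T-like cells, which use Cd55 too, held 26.8 to 49.8.

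Fcer2a, the low-affinity IgE receptor of mature follicular B cells, was about as high in prememory cells as in follicular-like cells. Centrocytes held 246 (224 to 270), 278 (254 to 302), 137 (123 to 152) and 108 (96.1 to 121), and prememory cells 346 (298 to 400), 353 (309 to 401), 220 (170 to 280) and 191 (143 to 252). Follicular-like cells held 293 (274 to 313), 358 (340 to 377), 219 (199 to 240) and 147 (131 to 163). WT and C were above K and CK in each of these 3 classes without overlap of their intervals, and the prememory and follicular-like intervals of the same library overlapped in all 4 libraries. T-like cells held 0.963 to 4.87.

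Cr2, complement receptor 2, was a marginal zone gene in these libraries and went against its place among resting follicular B cell genes. Marginal zone-like cells held 659 (620 to 701), 637, 383 (336 to 435) and 534, against 68.5, 82.0, 43.7 and 56.0 in follicular-like cells. Centrocytes were at 189 (170 to 210), 150, 122 and 158 and prememory cells at 138 (108 to 174), 198 (165 to 235), 71.0 (43.9 to 108) and 109 (72.9 to 156). Centrocytes were above follicular-like cells in all 4 libraries, and above prememory cells in WT, K and CK but not in C. T-like cells held 3.58 to 5.62.

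Il6ra, the interleukin 6 receptor alpha chain, likewise went against its label as a resting B cell gene. It was at 5.49, 2.65, 1.44 and 6.22 in follicular-like cells and at 78.9 (71.8 to 86.6), 78.7, 55.0 (48.9 to 61.6) and 72.6 in T-like cells. Prememory cells held 7, 1, 4 and 2 UMIs in all, or 13.3 (5.33 to 27.3), 1.52 (0.0385 to 8.47), 13.5 (3.68 to 34.6) and 7.51 (0.909 to 27.1) CPM. Myeloid-like cells held 47.9 to 76.8. Prememory cells and centrocytes together held under 20 Il6ra UMIs in every library, too few for a comparison at this depth.

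**Figure D1:**
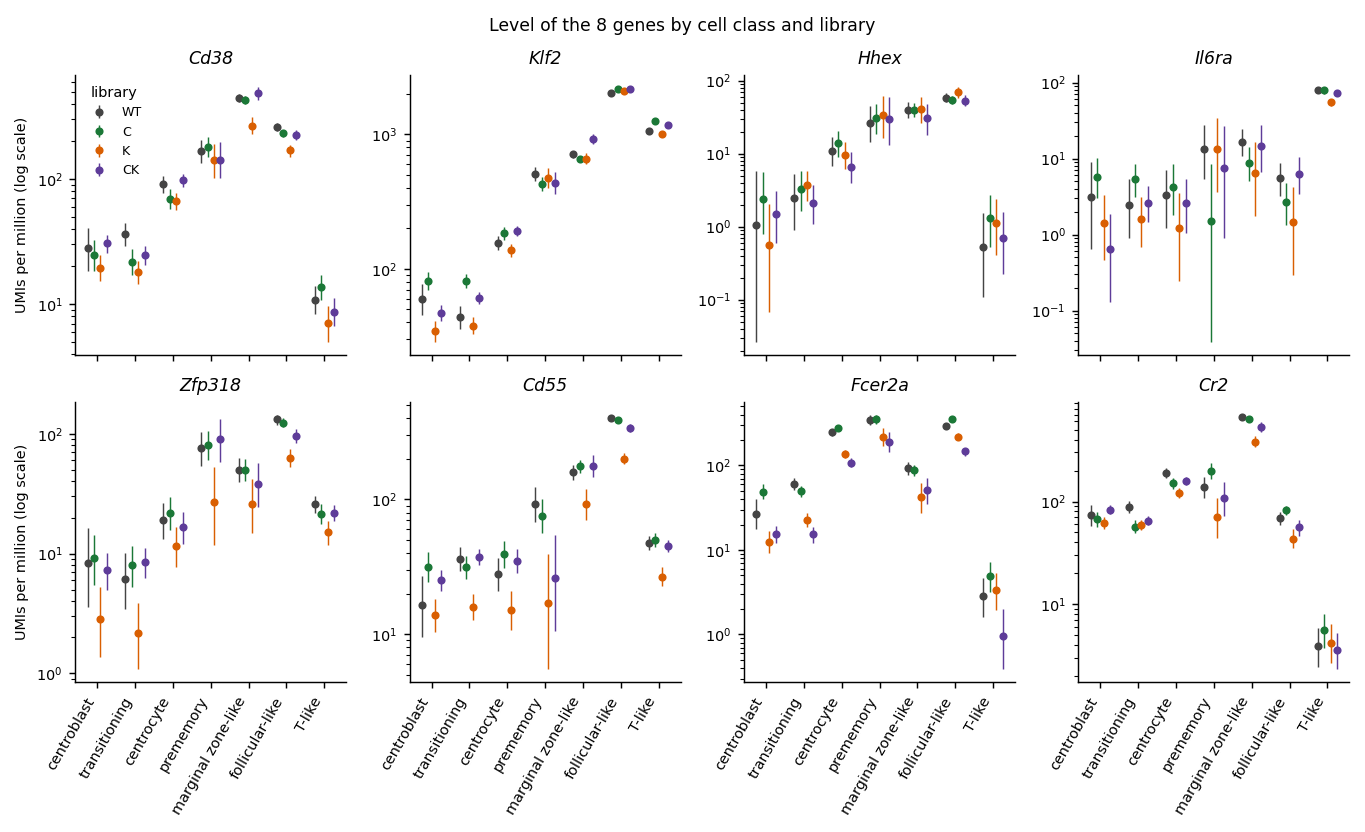
CPM (log axis) of the 8 genes in 7 cell classes, 1 point per library (WT, C, K, CK) with 95% exact Poisson counting intervals as bars. Klf2, Hhex, Zfp318 and Cd38 climb from centroblast to prememory to follicular-like cells, Cr2 peaks in marginal zone-like cells (383 to 659) and Il6ra in T-like cells (55.0 to 78.9).

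Prememory cells and centrocytes of the same library were compared by the log2 ratio of their levels, with an exact conditional interval for counting error. A gene was counted as higher at 2-fold or more where both sums together held at least 20 UMIs. The subtypes were annotated from the expression of these same cells. This comparison and the later ones between annotated subtypes, with their counts beside all genes, are therefore a description. Of the 8 genes, 4, 4, 4 and 3 were higher in prememory cells, where 11.4, 11.6, 10.1 and 11.0% of all genes tested were, and 10.7, 11.1, 14.2 and 15.3% were lower. Klf2 was higher by 1.70 (1.46 to 1.95), 1.22, 1.79 and 1.19 on the log2 scale, and Hhex by 1.28 (0.18 to 2.34), 1.14, 1.82 and 2.18. Zfp318 was higher by 1.98 (1.29 to 2.68), 1.89, 1.22 (-0.12 to 2.39) and 2.44. These 3 were past 2-fold in every library. Cd38 was past it in C (1.38) and K (1.10) but not in WT (0.87) or CK (0.54).

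The Cd55 ratio of prememory cells to centrocytes was 1.73 (1.14 to 2.33) and 0.95 on the log2 scale for WT and C, but 0.15 (-1.55 to 1.5) and -0.42 (-1.77 to 0.68) for K and CK. The last 2 intervals include 0. Fcer2a was higher by 0.49, 0.35, 0.68 and 0.82, under 2-fold in every library. Cr2 was at -0.45 (-0.84 to -0.08), 0.40, -0.78 and -0.54, so its direction was not shared by the libraries.

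Centrocytes against centroblasts gave a different set. Cd38, Klf2, Hhex, Zfp318 and Fcer2a were at least 2-fold higher in centrocytes in all 4 libraries, and Cr2 was so in WT (1.36) and C (1.16), with 0.96 in K and 0.93 in CK. That makes 6, 6, 5 and 5 of the 8 genes, where 6.90, 5.91, 5.93 and 7.13% of all genes tested were. Fcer2a was higher by 3.19, 2.5, 3.45 and 2.82 on the log2 scale, while Hhex rested on few centroblast UMIs. Klf2 was higher by 1.4, 1.18, 1.99 and 2.03 and Cd38 by 1.70, 1.5, 1.76 and 1.68, whereas Cd55 differed by only 0.75, 0.31, 0.12 and 0.47.

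The whole of the unannotated non-GC B cells was compared with centrocytes in the same way, and 6, 5, 5 and 6 of the 8 genes were at least 2-fold higher, where 13.4, 13.3, 12.3 and 11.0% of all genes tested were. Klf2 was higher by 3.36, 3.21, 3.70 and 3.32 on the log2 scale and Cd55 by 3.53, 3.04, 3.53 and 3.11. Zfp318 was higher by 2.44, 2.20, 2.24 and 2.33. Fcer2a was at -0.13, -0.03, 0.38 and 0.22 in this pool, which includes marginal zone-like cells at only 42.0 to 92.3 CPM. Follicular-like cells alone were above centrocytes for Fcer2a in all 4 libraries, at 293, 358, 219 and 147 against 246, 278, 137 and 108 CPM. The 8 genes thus did not move as 1 block between centrocytes and the pooled non-GC cells.

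Within the unannotated non-GC cells, the genes fell into opposite sets between marginal zone-like and follicular-like cells. Cr2 was higher in marginal zone-like cells by 3.27, 2.96, 3.13 and 3.25 on the log2 scale, and Il6ra by 1.59, 1.73 and 1.21 in WT, C and CK, with 7 UMIs in K. Cd38 was higher by 0.78, 0.89, 0.66 and 1.10. Klf2 was lower there, at -1.53, -1.74, -1.68 and -1.23, and so was Fcer2a, at -1.67, -2.02, -2.38 and -1.52. Of all genes tested, 5.12, 5.12, 3.96 and 4.25% were at least 2-fold higher in marginal zone-like cells and 8.06, 7.46, 15.2 and 11.0% at least 2-fold lower. Hhex was at 40.1, 39.9, 40.4 and 30.3 in marginal zone-like cells, below its follicular-like level in all 4 libraries.

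A finer clustering placed the marginal zone-like cells in separate clusters that differed in Il6ra and Klf2. Of the 1610 marginal zone-like cells, 1035 (64.3%) lay in a fine cluster of 1036 cells where Cr2 was at 896 (861 to 932), Cd38 at 492, Klf2 at 175 (160 to 191) and Fcer2a at 20.2. Another 546 (33.9%) lay in a fine cluster of 637 cells led by S100a6, Plac8, Capg, Ccr6 and Bhlhe41, which the markers named follicular-like at this finer resolution. It held Klf2 at 1651, Fcer2a at 192, Cd55 at 310, Cr2 at 156 and Il6ra at 22.6 (16.4 to 30.3), the highest Il6ra level of the 7 fine clusters. The marginal zone-like fine cluster held Il6ra at 5.06 (2.77 to 8.49), near the follicular-like level, so the higher Il6ra of the marginal zone-like class lay in the cells of the second cluster. Its Il6ra was at 32.9, 14.5, 14.6 and 26.2 in WT, C, K and CK. In the same cells Ccr6, a chemokine receptor, was at 155, and Cd80 and Nt5e, both carried by memory B cells, at 20.6 and 10.3.

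Among the follicular-like fine clusters, the one richest in Ighd (782, with 1709 cells) held the most Zfp318, at 180 over all libraries and 223, 193, 105 and 141 in WT, C, K and CK. It also held Fcer2a at 448 and Cd55 at 431. A cluster led by Il4i1, Egr3 and Egr1, genes that follow B cell stimulation, held Fcer2a at 517 (465 to 574) over all libraries and at 469, 695, 437 and 243 in the 4 libraries, and Klf2 at 944. By library its Fcer2a was above that of the Ighd-rich cluster (453, 512, 442 and 288) in WT and C and below it in K and CK, and the intervals overlapped in all but C. Of its 723 cells, 353 were unannotated. The 3 clusters with the most Klf2 (2251, 2393 and 2387) held less Fcer2a (230, 163 and 123) and were unevenly filled by the libraries, the last being mostly K cells (744 of 864).

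**Figure D2:**
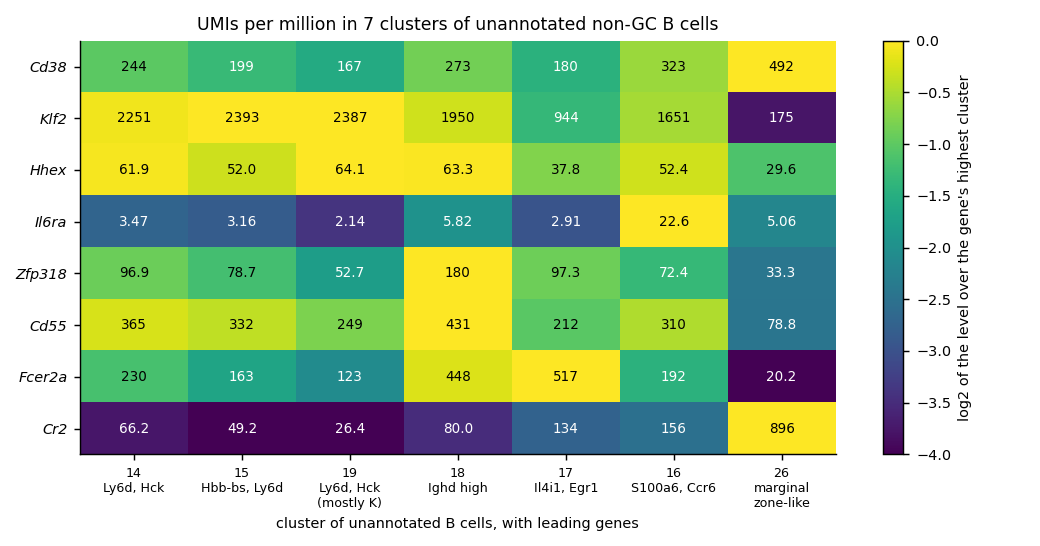
CPM of the 8 genes, printed in each field, in 7 fine clusters of unannotated non-GC B cells, with colour for the log2 level over the highest cluster of that gene. Summed over libraries, Cr2 and Cd38 peak in the marginal zone-like cluster (896 and 492), Fcer2a in the Il4i1 and Egr3 cluster (517, though the Ighd-rich cluster was higher in K and CK), Zfp318 in the Ighd-rich cluster (180) and Il6ra in the S100a6 and Plac8 cluster (22.6).

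Along pseudotime, which the authors computed for each mutant together with WT, cells were placed by the percent of WT cells that came before them and cut into 10 bins. From the first bin to the last, Klf2 went from 30 to 625 CPM (WT), 42.6 to 527 (C), 16.5 to 456 (K) and 30.3 to 494 (CK). Fcer2a went from 61.2 to 467, 51.6 to 429, 16.5 to 216 and 12.7 to 158, and its K and CK levels were below WT at both ends. Il6ra, at 1.42 to 10.3 in the last bin, was too sparse to give a direction.

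Cd38 ended at nearly the same level in all 4 libraries (181, 176, 165 and 177 in the last bin), but it was already at 72.8, 107 and 176 in bins 7, 8 and 9 of WT. In those bins C held 55.0, 43.0 and 83.8, K held 28.0, 33.0 and 70.9, and CK held 51.3, 52.8 and 90.5. All 3 mutant libraries were thus below WT in each of these bins. Cd55 ended at 121, 95.1, 30.7 and 61.6, and Zfp318 at 74.9, 88.0, 35.1 and 34.9.

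The last bin held 88, 168, 74 and 85 prememory cells. Without them, 35, 106, 152 and 315 cells were left there, in which Klf2 was at 668, 551, 434 and 464 and Fcer2a at 381, 355, 181 and 128. The rise of Klf2 and Fcer2a was therefore also present in cells not annotated as prememory. Without the prememory cells Hhex was at 8.46 (0.214 to 47.1), 10.7, 10.4 and 11.6, against 28.4, 29.8, 20.5 and 16.3 with them. These rest on 1, 3, 5 and 8 UMIs, and each interval included the level with prememory cells. Zfp318 was at 33.8 (9.22 to 86.7, on 4 UMIs) against 74.9 in WT. In C it was at 60.9 (35.5 to 97.5) against 88.0, and in K at 35.3 (20.6 to 56.6) against 35.1, with no drop. In CK it was at 15.9 (7.96 to 28.5, on 11 UMIs) against 34.9. The deposited order was computed from the same cells' expression, so these rises are a description.

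**Figure D3:**
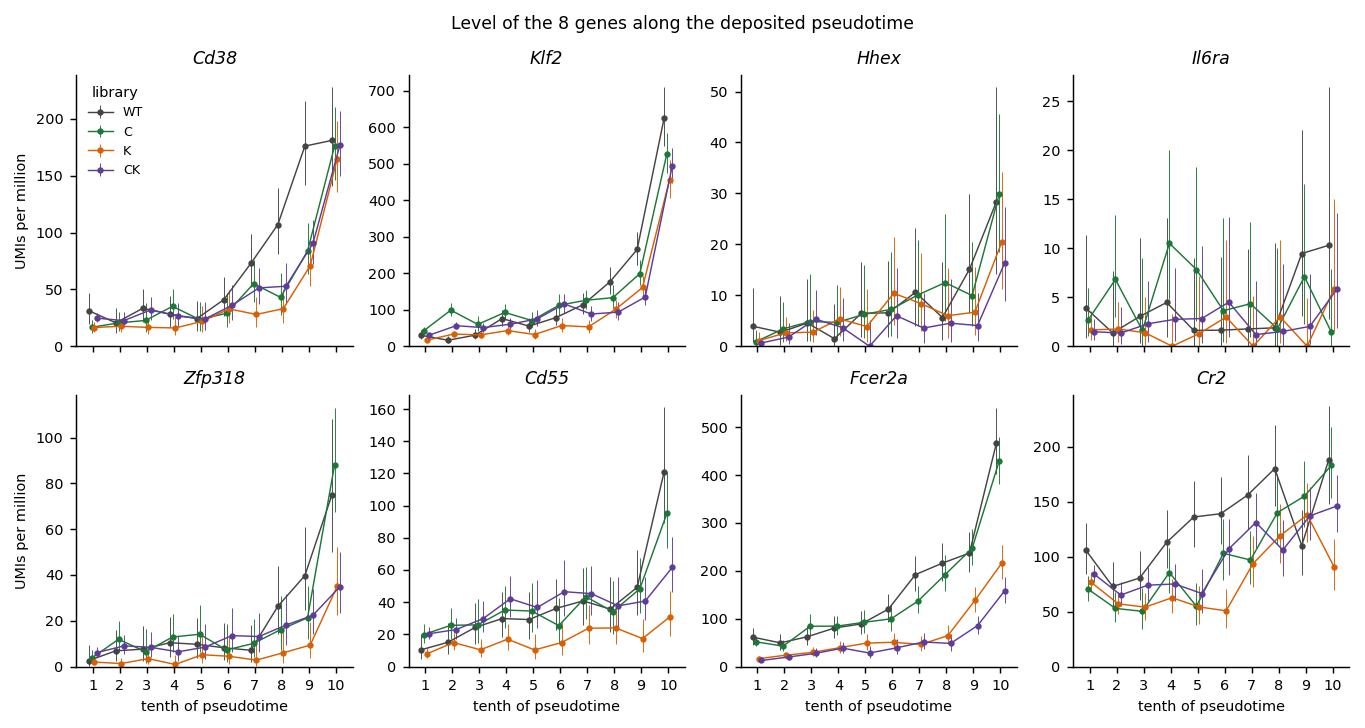
CPM of the 8 genes in 10 bins of pseudotime (set by the WT cells), 1 line per library with 95% counting intervals. Klf2, Cd38 and Fcer2a are highest in the last bins, with Fcer2a at 467 and 429 in WT and C but 216 and 158 in K and CK.

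For Klf2, the share of cells with at least 1 UMI ranked follicular-like cells, prememory cells and centrocytes as CPM did. Klf2 was found in 93.7, 89.1, 91.4 and 86.2% of follicular-like cells, in 62.8, 51.6, 58.1 and 47.8% of prememory cells and in 29.6, 23.7, 22.1 and 21.4% of centrocytes. Fcer2a was found in 54.7% (49.6 to 59.8, exact binomial interval), 49.7, 32.1 and 20.7% (18.2 to 23.5) of centrocytes, against 0.984, 0.876, 0.818 and 0.189% of T-like cells. Depth differed, with median UMIs of 4741, 3498, 3811 and 2670 in centrocytes and 3295, 2409.5, 2783 and 1978.5 in T-like cells. With each cell thinned to 1000 UMIs, Fcer2a was found in 18.8, 20.9, 12.3 and 9.44% of centrocytes and in 26.2, 26, 20.4 and 17.7% of prememory cells, so K and CK were still below WT and C.

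Cells with UMIs of at least 2 of the 8 genes, after thinning to 1000 UMIs, made up 57.7% (55.1 to 60.4), 58.2, 42.9 and 49.3% of follicular-like cells. Cells with fewer than 1000 UMIs were left out, among follicular-like cells 29, 75, 29 and 361 of 1404, 2543, 1201 and 1788. The CK share thus leaves out more of its shallow cells. In prememory cells the share was 29.0% (21.7 to 37.1), 27.4, 14 (7.66 to 22.7) and 20.4%, between those of follicular-like cells and of centrocytes (11.6, 11.9, 5.92 and 8.58%) in every library. Centroblasts held 2.19, 2.63, 1.09 and 1.98%, below the 7.70, 10.0, 6.26 and 8.61% of T-like cells, which carry Klf2 and Il6ra. Of the centroblasts, 82.0, 81.3, 87.0 and 80.9% had no UMI of any of the 8 genes.

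**Figure D4:**
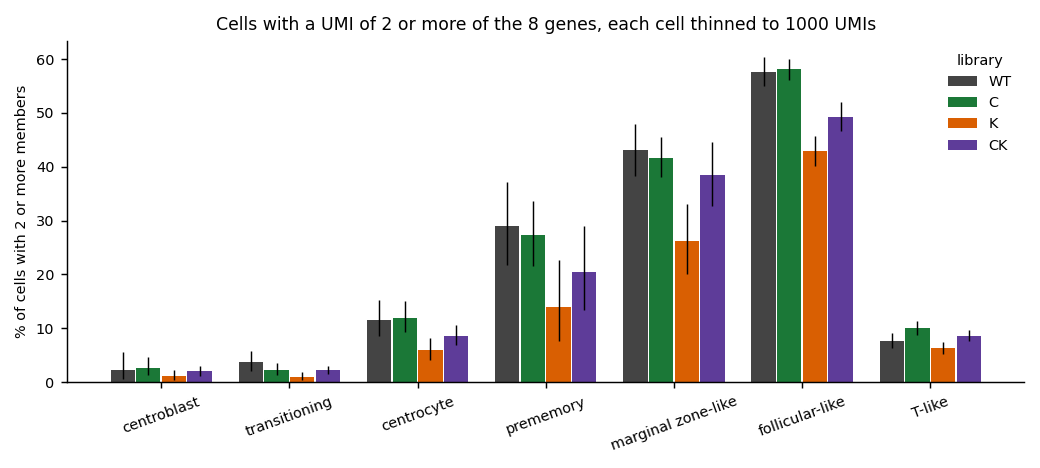
Percent of cells with UMIs of at least 2 of the 8 genes after thinning each cell to 1000 UMIs, by class and library, with 95% exact binomial intervals; bars start at 0. Follicular-like cells reach 42.9 to 58.2%, prememory cells 14 to 29.0% and centroblasts 1.09 to 2.63%. Cells with fewer than 1000 UMIs are left out, among them 361 follicular-like cells of CK.

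The mutant libraries were compared with WT within each class, counting a gene as lower or higher at 1.5-fold. Over the 32 pairs of a member and a subtype (centroblast, transitioning, centrocyte, prememory), 2 were lower in the C library and 4 higher, 15 were lower in K and 1 higher, and 6 were lower in CK and 1 higher. The pairs with enough UMIs to be counted numbered 6, 7, 7 and 7 in C and CK and 5, 7, 7 and 7 in K. Of all genes tested, K was lower for 23.2% in centroblasts, 22.7% in transitioning cells, 22.6% in centrocytes and 25.8% in prememory cells. In the same classes CK was lower for 12.0, 7.48, 5.66 and 13.7%, and C for 8.18, 5.27, 5.82 and 9.41%. C was higher for 8.79, 5.10, 5.71 and 7.63%, K for 7.45, 5.13, 4.60 and 7.04%, and CK for 11.5, 7.97, 7.17 and 8.94%.

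Fcer2a was the only member that was lower in CK in all 4 subtypes, although in centroblasts the direction turned (0.71 for CK and 0.51 for K on the log2 scale) with each cell thinned to 1000 UMIs. In transitioning cells it was at 60 (50.7 to 70.5), 49.3 (42.1 to 57.3), 22.9 (18.9 to 27.4) and 15.3 (12.2 to 18.8) CPM, where the intervals of K and CK lay below those of WT and C. The log2 ratio of CK over WT was -1.97 (-2.37 to -1.58) there, -1.19 (-1.40 to -0.97) in centrocytes, -0.86 (-1.33 to -0.40) in prememory cells and -0.82 (-1.49 to -0.12) in centroblasts. In transitioning cells 9 of 9261 genes (0.0972%) were lower still, and in centrocytes 63 of 8530 (0.739%).

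The same gene was lower in CK outside the annotated cells. Unannotated GC B-like cells held 45.6 (41.7 to 49.8), 36.2, 17 and 8.88 (6.85 to 11.3) CPM, a log2 ratio of -2.36 (-2.76 to -1.99) for CK, with 8 of 10209 genes (0.0784%) lower still. In these cells 93.7 to 98.5% of cells had 2500 genes or more. In follicular-like cells the CK ratio was -1.0 (-1.19 to -0.82), with 119 of 9060 genes (1.31%) lower still, and in marginal zone-like cells it was -0.86 (-1.46 to -0.30). T-like cells held 16 UMIs in WT and 7 in CK, a ratio of -1.56 (-3.08 to -0.20) at 2.84 and 0.963 CPM.

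Taking the follicular-like ratio off, the CK difference in Fcer2a was -0.97 (-1.40 to -0.55) in transitioning cells and -1.36 (-1.78 to -0.95) in unannotated GC B-like cells. In centrocytes it was -0.19 (-0.47 to 0.09) and in prememory cells 0.14 (-0.34 to 0.63), both including 0. Intervals of such differences, here and below, are normal approximations from the counts and not exact. The CK difference was thus larger than that of follicular-like cells in transitioning and unannotated GC B-like cells, and not detectably so in centrocytes and prememory cells. In the fine clusters the CK ratio ran from -0.65 in the Ighd-rich cluster to -1.60 in the first Klf2-rich cluster, and the marginal zone-like cluster had 1 UMI in CK against 19 in WT.

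In K, the log2 ratio of Fcer2a over WT was -1.39 (-1.76 to -1.03) in transitioning cells, -0.84 (-1.05 to -0.64) in centrocytes, -0.66 (-1.09 to -0.24) in prememory cells and -1.11 in centroblasts. In follicular-like cells of K it was -0.42 (-0.59 to -0.26), less than 1.5-fold, and by fine cluster its direction varied. The K ratio was -0.10 in the Il4i1 and Egr3 cluster and -0.04 in the Ighd-rich cluster. In the 3 Klf2-rich clusters it was -0.72 (-1.37 to -0.12), 0.82 (0.14 to 1.49) and 0.45 (-0.56 to 1.69), in the S100a6 and Plac8 cluster -1.09 (-1.71 to -0.52), and the marginal zone-like cluster had 1 UMI in K. C was within 1.5-fold of WT in transitioning cells, centrocytes and prememory cells, and was higher in centroblasts by 0.86 (0.23 to 1.54), a value that turned to -0.17 with cells of 2500 genes or more added.

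The log2 ratio of Cd55 over WT in prememory cells was -2.46 (-4.14 to -1.14) for K and -1.82 (-3.21 to -0.67) for CK. In K 31 of 4732 genes (0.655%) were lower still and in CK 24 of 4796 (0.50%). Less the follicular-like ratio, the differences were -1.45 (-2.79 to -0.11) and -1.57 (-2.72 to -0.42). These approximate intervals rest on 5 prememory UMIs in K and 7 in CK. In CK prememory cells were the only one of the 4 subtypes past 1.5-fold lower for Cd55. Cd55 was higher in centroblasts of C, at 0.93 (0.13 to 1.82), and of CK, at 0.60 (-0.16 to 1.46), the latter turning to -0.32 with each cell thinned to 1000 UMIs. The share of prememory cells with a Cd55 UMI was 26.9, 16.9, 5.38 and 6.09%, and 8.28, 8.07, 2.15 and 0.885% at 1000 UMIs. In T-like cells the K ratio was -0.82 (-1.12 to -0.52), so the K library was lower in cells of another lineage too.

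Zfp318 was lower in K, with log2 ratios of -1.5 in transitioning cells, -0.72 (-1.49 to 0.03) in centrocytes, -1.49 (-2.79 to -0.37) in prememory cells and -1.05 in follicular-like cells, and of -0.78 (-1.19 to -0.38) in T-like cells. CK was not past 1.5-fold in any of the 4 subtypes. Cr2 was lower in K, with ratios of -0.59 in transitioning cells, -0.63 in centrocytes, -0.96 (-1.74 to -0.25) in prememory cells and -0.65 in follicular-like cells, and in transitioning cells of C, at -0.64 (-0.93 to -0.36). Relative to all non-GC B cells of the same library, the K ratios of Cr2 were 0.54 in transitioning cells, 0.50 in centrocytes and 0.18 in prememory cells. With the follicular-like ratio taken off instead, they were 0.05 (-0.38 to 0.49), 0.01 (-0.40 to 0.43) and -0.31 (-1.10 to 0.47), each interval including 0. Cd38 was lower in transitioning cells of C, at -0.73 (-1.2 to -0.27), and of K, at -1.02, and in follicular-like cells of K, at -0.62. The share of non-GC B cells that was marginal zone-like was 23.4, 21.7, 13.7 and 13.7%, and over all non-GC cells the CK ratio of Cr2 was -0.74, against -0.29 in follicular-like and -0.30 in marginal zone-like cells alone.

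Klf2 was higher in C than in WT in transitioning cells by 0.89 (0.57 to 1.23), and by 0.80 (0.47 to 1.12) with the follicular-like ratio taken off. It was lower in centroblasts of K, at -0.78. In prememory cells and in follicular-like cells no library passed 1.5-fold for Klf2. Hhex was lower in centrocytes of CK, at -0.72 (-1.72 to 0.28), and higher in transitioning cells of K by 0.61, on 19 and 6 UMIs (-0.55 when thinned to 1000 UMIs), and Il6ra was higher in transitioning cells of C by 1.12 (-0.28 to 2.74). The Hhex interval in centrocytes and the Il6ra interval include 0.

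**Figure D5:**
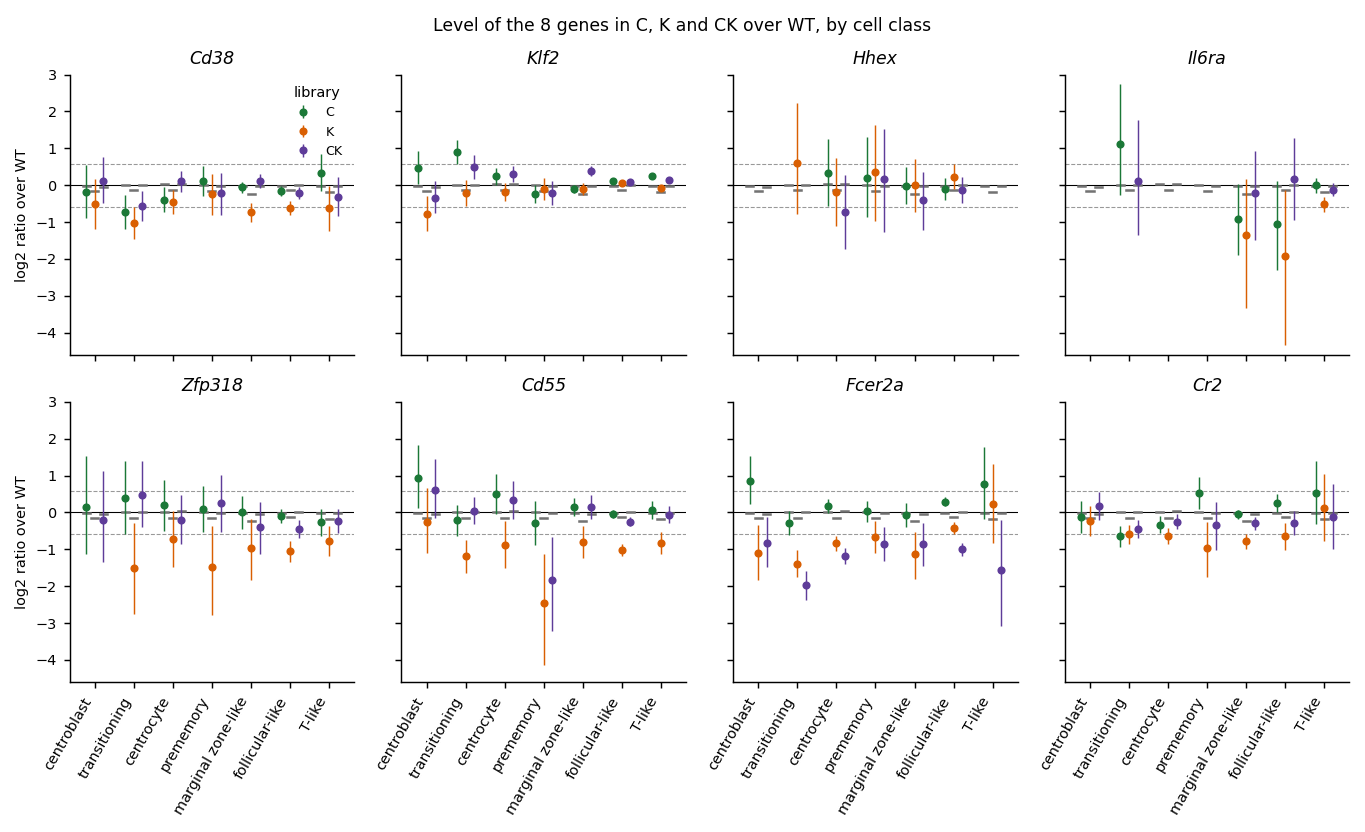
Log2 ratio of each mutant library over WT for the 8 genes in 7 cell classes, with 95% counting intervals, dashed lines at 1.5-fold and short grey marks at the median of all genes tested; pairs with under 20 UMIs are left out. Fcer2a in CK lies below the lower line in the 6 B cell classes drawn, from -0.82 to -1.97, and Cd55 lies lowest in prememory cells of K (-2.46) and CK (-1.82).

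In the unannotated non-GC B cells as a whole, 1, 5 and 2 of the 8 genes were lower in C (Il6ra), K and CK (Fcer2a and Cr2), and none was higher. Of all genes tested there, 4.39, 22.0 and 5.88% were lower and 2.66, 2.97 and 3.54% higher. In follicular-like cells 1, 5 and 1 of the 8 were lower, against 4.90, 21.3 and 5.95% of all genes, and in marginal zone-like cells 1, 6 and 1, against 6.72, 30.2 and 11.5%. In unannotated GC B-like cells 0, 7 and 2 were lower, against 4.68, 22.7 and 7.91%, and the exception in K was Klf2 (-0.37). In T-like cells 0, 3 and 1 of the 7 with enough UMIs were lower, against 5.47, 23.5 and 4.82%.

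Lists of other genes with related roles were counted beside the 8 genes. Of the recirculation genes (S1pr1, S1pr4, Ccr7, Itgb7, Cxcr5, Gpr183, Ccr6), which guide lymphocytes between blood, follicle and lymph, 3 of 6, 3 of 7, 4 of 7 and 3 of 6 with enough UMIs were at least 2-fold higher in prememory cells than in centrocytes. Of all genes tested, 11.4, 11.6, 10.1 and 11.0% were higher in prememory cells than in centrocytes and 10.7, 11.1, 14.2 and 15.3% lower. Ccr7, which draws cells toward the T zone, was at 92.8, 98.9, 122 and 131 in prememory cells against 4.92, 11.7, 2.4 and 2.58 in centrocytes. Gpr183, which draws cells to the outer follicle, was at 68.2, 66.9, 77.7 and 113 against 12.0, 13.3, 10.8 and 7.38. Of the same list 6 of 7 were higher in non-GC cells than in centrocytes in each library, where 13.4, 13.3, 12.3 and 11.0% of all genes tested were. Ccr7 was also a marker used to name the follicular-like clusters, so its place in that count is no separate result.

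Of the memory-associated genes (Bach2, Ski, Tle3, Bcl2, Cd80, Nt5e, Pdcd1lg2, Il9r, Cd44, Zbtb32), 2 of 6, 2 of 6, 2 of 5 and 1 of 4 were higher in prememory cells and 2 in each library were lower, so the list did not move as a whole. Bcl2, the survival factor, was at 208, 190, 162 and 169 against 15.3, 20.7, 10.8 and 9.60 in centrocytes. None of the 2 interleukin 6 signalling genes with enough UMIs (of Il6st, Jak1, Stat3 and Socs3) was higher, and Il6st, the partner of Il6ra, was at 72.5, 64.8, 50.3 and 59.7 in T-like cells but 4.85, 2.16, 2.4 and 2.66 in follicular-like cells. Of the complement and Fc receptor partners (Cd81, Cr1l, Fcgr2b, Cd55b, Cd46), 2, 2, 1 and 1 of 3 were lower in prememory cells. Of the heavy chain genes Ighd and Ighm, 1 of 2 was higher in each library. The germinal center genes (Mef2b, S1pr2, Rgs13, Gcsam, Fas, Bcl6, Mki67) were lower for 7, 7, 6 and 7 of 7.

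In centrocytes of CK, 3 of 6 recirculation genes and 3 of 6 memory-associated genes were at least 1.5-fold lower than in WT, with medians of -0.45 and -0.59, against a median of 0.04 and a background of 5.66% over all genes. K had 3 of 6 recirculation genes lower, with a median of -0.44, where 22.6% of all genes tested were lower in K. In prememory cells none of the recirculation genes was lower, and 1 of 5 in K and 2 of 4 in CK were higher, with medians of 0.39 and 0.61. There, 1 of 3 memory-associated genes was lower in each. Of all genes tested in prememory cells, 7.04% in K and 8.94% in CK were higher, and 25.8 and 13.7% lower. In follicular-like cells of CK, where 5.95% of all genes tested were lower, none of 7 recirculation genes was (median -0.20), whereas Fcer2a was.

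Over the 51 sums of a class and a library, the genes whose log2 levels were most alike to each member were named from 9073 genes. Klf2 was most like Ifi203 (r = 0.933), S100a10 (0.932) and Pdcd4 (0.932), and Cr2 most like S1pr3 (0.921), Gm4610 (0.906) and Bank1 (0.905). Fcer2a was most like Fcmr (0.890), Pxk (0.879) and Gm15848 (0.856), and Zfp318 most like P2ry10b (0.906), Iqsec1 (0.903) and Irak2 (0.875). Hhex was most like Zeb2 (0.911) and Calhm2 (0.905), and Il6ra most like Cd8a (0.879), Il6st (0.875) and Actn1 (0.872). Cd38 was most like Lynx1 (0.877), Edaradd (0.871) and Tmem123 (0.870), and Cd55 most like Edaradd (0.874), B3gnt5 (0.861) and 4930523C07Rik (0.849). S1pr3 and Fcmr were also markers used to name the marginal zone-like and follicular-like clusters. Their likeness to Cr2 and Fcer2a is therefore not separate from that naming.

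Among the members, Klf2 and Zfp318 were the most alike (r = 0.78), followed by Cd38 with Cd55 (0.73), Zfp318 with Cd55 (0.73) and Fcer2a with Cr2 (0.72). Klf2 and Cr2 were at -0.16 and Il6ra and Cr2 at -0.50. The sums share libraries and depth and are not independent, so these values are a description.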

How the data were processed

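The deposited files were 4 matrices of UMI counts, made by the authors with Cell Ranger 3.0 on mm10 (submitters' processing notes), and a metadata table with the cell type and a pseudotime score from Seurat 4.0 and slingshot. The pseudotime score was deposited by the authors as a rank, made for each mutant with WT. The percent of mitochondrial counts per cell was deposited by the authors for annotated cells. Cell types were transferred by the authors from other datasets. The module scores in that table were not used here.

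The counts were summed over the cells of each class and library and scaled to 1000000 (CPM). Intervals were exact Poisson, conditional binomial or Clopper-Pearson at 95%. The exception was differences with the follicular-like ratio taken off, whose 95% intervals were normal approximations from the counts. No test was run, because each genotype was 1 library. All cells with under 8% mitochondrial counts were clustered with scanpy 1.11.5 (igraph 0.11.9, Python 3.11.15), 3000 variable genes and 30 components, without the 8 genes, immunoglobulin and mitochondrial genes. Clusters were named by at least 3 markers at 25% or more of the highest cluster, a level that follows an earlier look at the clusters. In an alternative, unannotated cells with 2500 genes or more were given a subtype by their 25 nearest neighbours. Doublets were called by Scrublet in 3.32 to 5.01% of barcodes and kept, and removing them was an alternative. Calls needed 20 UMIs over both sums and a 1.5-fold (genotype) or 2-fold (class) difference. The named genes were the 8 members, the listed genes of each role and, for likeness, the 3 genes with the highest Pearson correlation of log2(CPM + 10) over sums of 30 or more cells, among genes with 500 or more UMIs. The members, lists and motifs were chosen with earlier results of these data known. The scripts were tested on simulated data. Some genes of the lists are not reported here, and the counts of the lists and the summed markers were made without them.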

Additional observations from a re-analysis of the deposited data

How the results depend on the processing

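No paired analysis was possible because each genotype has 1 library, and for the same reason no replicate could be left out. The counts of members past the threshold differed when cells were thinned and when the fold was changed. With each cell thinned to 1000 UMIs (added after seeing the data), the members lower than WT in the annotated subtypes were 1 (C), 6 (K) and 3 (CK), against 2, 15 and 6, and those higher were 2 (C) and 0 (K), against 4 and 1. At a fold of 2 the lower counts were 0, 7 and 3 and the higher counts 1, 0 and 0. Thinning leaves fewer UMIs per pair. The number of pairs still counted and the share of all genes called are not given for these settings. A smaller count is therefore not a smaller share. Relative to non-GC B-like cells, K had 4 lower and 2 higher and CK 3 higher. With cells of 2500 genes or more added, C had 0 lower and K and CK 0 higher. K also had 0 higher with Scrublet calls removed and with at least 50 UMIs. Thinned to 2000 UMIs, CK had 2 higher in the subtypes, and in non-GC B-like cells C had 0 lower and 1 higher and K 3 lower. Members higher in prememory cells than in centrocytes were 2 in K and 1 in CK at 2000 UMIs, and 2 in K with at least 50 UMIs, against 4 and 3. By shares of cells with a UMI the count was 7 in K and 6 in CK, and with at least 2 UMIs per cell 4 and 3.

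Single values changed sign as follows. Thinned to 1000 UMIs, Fcer2a in centroblasts was at 0.51 in K and 0.71 in CK, Cd55 in centroblasts of CK at -0.32 and Hhex in transitioning cells of K at -0.55. Relative to non-GC B-like cells, Fcer2a in centroblasts of CK was at 0.02, Cr2 in K at 0.54 in transitioning cells, 0.50 in centrocytes and 0.18 in prememory cells, and Zfp318 in centrocytes of K at 0.20. With cells of 2500 genes or more added, Fcer2a in centroblasts of C was at -0.17. Thinned to 2000 UMIs, Cr2 in non-GC B-like cells of CK was at 0.35. The cause was not tested. Leaving out immunoglobulin and mitochondrial genes moved none of 104 values, and median-of-ratios scaling moved 1. Other settings moved more. Thinning to 1000 UMIs moved 15 values besides the 4 that changed sign, and 80 stayed the same. Thinning to 2000 UMIs moved 20 besides the 1 that changed sign, and 83 stayed the same. Relative to non-GC B-like cells, 17 moved besides the 5 that changed sign, and 58 stayed the same.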
